A study of Mus musculus with 16 samples.

Results

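Mouse embryonic stem (ES) cells kept in 2 naive maintenance media were compared before the cells were released from those media. The comparison uses 4 of the 16 libraries of the series, 2 from serum/LIF+2i and 2 from 2i/LIF, all taken at 0 h. It covers the 14288 genes that passed a filter on low counts, out of 27179 in the deposited table. The series follows cells of both media for up to 40 h after release from naive pluripotency, which places these 4 libraries at its starting point.

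The 2i/LIF group grew without serum, in equal parts of DMEM/F-12 and Neurobasal with N-2 and B-27 supplements, LIF, 2i, 2-mercaptoethanol and l-glutamine at 2 mM. The serum/LIF+2i group grew in knockout DMEM with 10% fetal bovine serum, LIF at 1000 U per ml, 2i, l-glutamine at 2 mM and 2-mercaptoethanol at 0.1 mM. In both groups 2i was CHIR99021, an inhibitor of GSK3, at 3 µM and PD0325901, an inhibitor of MEK, at 1 µM. Both groups came from serum/LIF cultures, were adapted over 3 passages, were used for at most 9 passages and grew on gelatin, per the labels. The media differ in base medium, supplements and serum at the same time, so an effect of serum alone cannot be told apart from the rest of the medium. The labels name neither the ES cell line nor separate cultures for the replicates. The p-values therefore measure the spread between these samples, which may be technical.

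Naive ES cells resemble the epiblast of the blastocyst before implantation and self-renew on LIF, which acts through STAT3. CHIR99021 stabilises beta-catenin and so keeps Wnt targets on, and PD0325901 blocks ERK signalling, which otherwise drives differentiation. Serum carries lipoproteins, growth factors and lysophospholipids, whereas N-2 and B-27 supply defined hormones, lipids, retinoids and antioxidants.

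Total counts at 0 h ran from 5931381 to 6946416 per library, and 16393 to 16672 genes had at least 1 count. Replicates of 1 medium had a Pearson correlation of log2 levels across genes of 0.991 in both media, against 0.975 to 0.977 between media (genes are not independent replicates). For genes at 5 or more CPM (counts relative to the scaled library size), the SD of the log2 ratio was 0.178 and 0.186 within a medium and 0.416 to 0.428 between media. Ribosomal RNA genes took 0.526% to 1.09% of counts, and the ranges of the media overlapped. All 8 ES cell markers examined were abundant in every library, with Pou5f1 at 641 and 641 CPM in 2i/LIF and 702 and 712 CPM in serum/LIF+2i.

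At 0 h, 4710 genes (33.0% of those tested) differed between the media at an adjusted p under 0.05 (edgeR quasi-likelihood F test, two-sided, fitted on all 16 libraries). Genes past this threshold are referred to as called, and rose, higher, fell and lower refer to serum/LIF+2i relative to 2i/LIF. Of the calls, 2085 were higher (14.6%) and 2625 lower (18.4%), so that 44.3% were higher. With upper quartile scaling 58.1% of 4867 calls were higher, so the balance of directions rests on the scaling. Most differences were small. Only 813 called genes (5.69%) changed by at least 1 on the log2 scale, 325 higher (2.27%) and 488 lower (3.42%), and 234 (1.64%) by at least 2. In 9093 genes (63.6%) both libraries of 1 medium lay above both of the other. With 2 libraries per medium, many genes would separate in this way without a difference, so 63.6% is not a share of genes that differ. The median log2 fold change of all genes was -0.01.

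**Figure D1:**
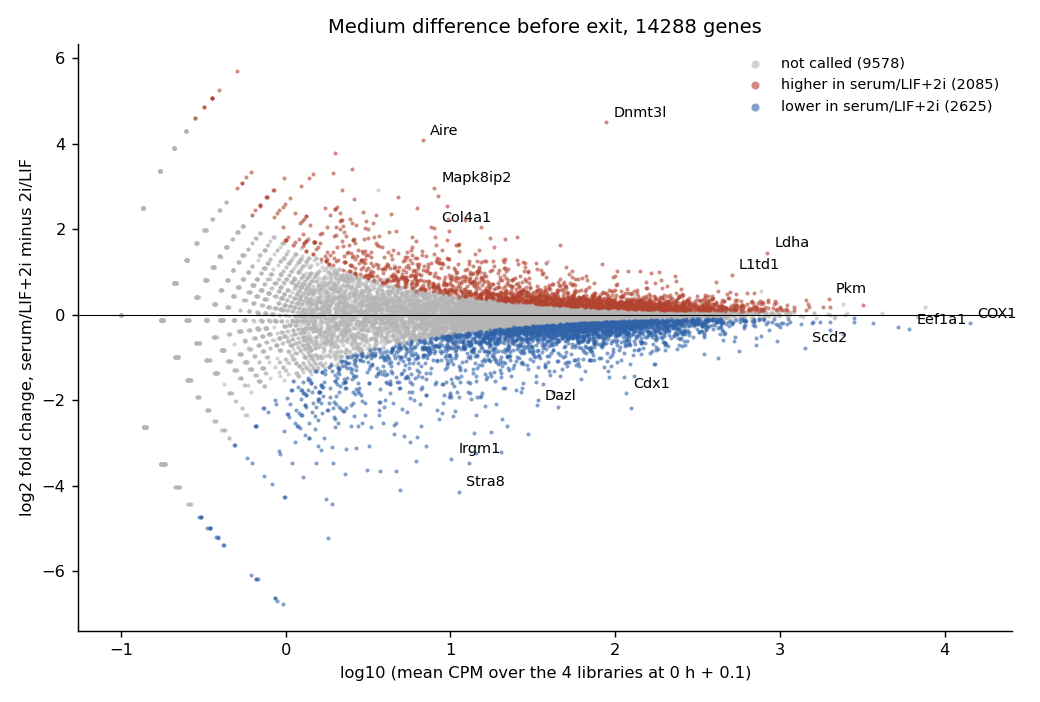
Log2 fold change between the media at 0 h (vertical axis, serum/LIF+2i minus 2i/LIF) against the mean level over the 4 libraries (horizontal axis, log10 of CPM + 0.1). Each point is 1 of 14288 genes, red where called higher (2085), blue where called lower (2625) and grey where not called, and the abundant genes on the right lie close to 0 while Dnmt3l stands 4.50 above it.

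The genes taken up first are the 12 largest rises and 12 largest falls on the log2 scale among called genes at a mean of 5 CPM or more at 0 h whose libraries did not overlap between media, so that their separation was fixed by the choice. Among these the largest rise was that of Dnmt3l (54427), a catalytically inactive cofactor of the de novo DNA methyltransferases. It stood at 8.62 and 6.38 CPM in 2i/LIF and 184 and 153 CPM in serum/LIF+2i, which is 4.50 ± 0.20 (SE) on the log2 scale (edgeR, adjusted p 1.26e-07), or 22.7-fold. Every serum/LIF+2i library lay far above both 2i/LIF libraries. Aire (11634), which encodes a transcriptional regulator best known from the thymus, went from 1.03 and 0.456 to 14.8 and 10.4 CPM (4.09 ± 0.34). The annotation places Aire on chromosome 10 at 78030022 to 78043610 on the minus strand and Dnmt3l at 78042287 to 78063622 on the plus strand (GRCm38.p6), so their ends overlap. Whether the counting used strand is not given in the sources used here, and so reads of the pair cannot be told apart in the shared stretch. The next genes on that chromosome were higher too. Icosl (50723), the ligand of the T cell costimulator ICOS, stands 5746 bases from Dnmt3l and went from 2.24 and 1.97 to 17.6 and 11.5 CPM (2.78 ± 0.26). Pfkl (18641), the liver-type phosphofructokinase of glycolysis, 32480 bases to the other side, went from 114 and 106 to 229 and 205 CPM (0.98 ± 0.05).

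RefSeq lists 3 starts for Dnmt3l, and the 120 bases before each are shown because this gene leads the comparison and its product takes part in DNA methylation. CpG dinucleotides are in capitals, and positions are of GRCm38.p6 on the strand given. The first window lies inside both Aire and Dnmt3l, outside their exons, and the other two lie inside Dnmt3l, also outside exons.
Dnmt3l chr10:78042167-78042286 (+): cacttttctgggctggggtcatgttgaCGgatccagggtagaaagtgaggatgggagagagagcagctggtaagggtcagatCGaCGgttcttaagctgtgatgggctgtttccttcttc
Dnmt3l chr10:78049722-78049841 (+): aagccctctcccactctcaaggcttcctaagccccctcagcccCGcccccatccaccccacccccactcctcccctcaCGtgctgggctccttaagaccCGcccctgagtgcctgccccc
Dnmt3l chr10:78055215-78055334 (+): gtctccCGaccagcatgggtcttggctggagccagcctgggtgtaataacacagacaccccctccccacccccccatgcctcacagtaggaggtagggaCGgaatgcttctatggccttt
These windows hold 3, 3 and 2 CpG. Over the 250 bases before each start there were 5, 4 and 3, where the median of all 10940 tested genes with a listed promoter was 17. That median takes the start with the most CpG in each gene. The counts per gene do not say which start was used.

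The other genes among the 12 largest rises had levels of 1.21 to 6.23 CPM in 2i/LIF and 9.84 to 27.6 CPM in serum/LIF+2i, and adjusted p from 1.03e-18 (Anxa2) to 3.43e-11 (Mgarp, edgeR). Mapk8ip2 (60597), a scaffold of JNK signalling, rose by 2.97 ± 0.26 on the log2 scale, Tcfl5 (277353), a germ cell transcription factor, by 2.54 ± 0.22, and Myo18b (74376), an unconventional myosin, by 2.49 ± 0.29. Phldb1 (102693), which links cortical microtubules to adhesion sites, rose by 2.25 ± 0.22, Olig2 (50913), a neural transcription factor, by 2.23 ± 0.20, and Mgarp (67749), a mitochondrial protein, by 2.05 ± 0.26. Anxa2 (12306), a membrane-binding annexin, rose by 2.04 ± 0.18 and Gas6 (14456), the ligand of the TAM receptor kinases, by 1.96 ± 0.22. Col4a1 (12826), a basement membrane collagen chain, went from 2.41 and 3.65 to 12.3 and 12.9 CPM (2.04 ± 0.23), and its partner chain and overlapping neighbour Col4a2 from 1.21 and 1.52 to 7.20 and 7.05 CPM (2.36 ± 0.33). Tcfl5, Myo18b and Gas6 also overlap another annotated gene.

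Under the same limit of 5 CPM, the largest fall was that of Stra8 (20899), a retinoic acid target that gates entry into meiosis. It went from 22.2 and 19.9 CPM in 2i/LIF to 0.882 and 1.47 CPM in serum/LIF+2i, a log2 fold change of -4.14 ± 0.30 (adjusted p 6.41e-15, edgeR), or 17.65-fold. Both serum/LIF+2i libraries were near 1 CPM. Nphs1 (54631) and Kirrel2 (243911), genes of the nephrin family of cell adhesion molecules that lie 692 bases apart on chromosome 7, fell together. Nphs1 went from 49.5 and 53.8 to 7.35 and 7.49 CPM (-2.80 ± 0.13) and Kirrel2 from 23.8 and 24.2 to 3.53 and 3.52 CPM (-2.76 ± 0.19). Next to them, Aplp1 (11803), a relative of the amyloid precursor protein, went from 51.7 and 47.4 to 16.02 and 17.2 CPM (-1.57 ± 0.11), and the overlapping transcript Nphs1os fell by 3.63 on the log2 scale.

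A second run of neighbours fell on the X chromosome. 4930502E18Rik (75013) went from 25.3 and 22.02 to 2.06 and 2.20 CPM (-3.46 ± 0.23) and 1700013H16Rik (75514), 4336 bases away, from 10.2 and 12.2 to 0.441 and 1.62 CPM (-3.43 ± 0.33). The next genes, Zfp36l3 (3.10 and 3.34 to 0.588 and 0.587 CPM, -2.43 ± 0.53) and Xlr (3.79 and 2.73 to 0.588 and 0.147 CPM, -3.09 ± 0.60), were lower as well. Neighbours outside the 24 largest changes were named after their values were seen. Within 50 kb of the 12 rises, 9 of 22 tested neighbours were called higher (40.9%), and within 50 kb of the 12 falls, 15 of 32 were called lower (46.9%), where a pair of named neighbours counts once from each side. A neighbour near several of the named genes was counted once in these shares. Dnmt3l, Aire, Icosl, Nphs1, Kirrel2, 4930502E18Rik and 1700013H16Rik are themselves among the neighbours counted, and their calls were fixed by the choice. Around all called genes 930 of 5177 and 1702 of 6958 (24.5%) neighbours moved with them. There a neighbour was counted again for each called gene near it, so the shares of the named genes cannot be compared directly with these. The shares around the 24 genes are a description, since those genes were chosen by their change.

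Of the other large falls, Irgm1 (15944) and Zbp1 (58203) belong to interferon-inducible defence, Irgm1 as a GTPase and Zbp1 as a sensor of Z-form nucleic acids. Irgm1 went from 17.8 and 18.8 to 1.47 and 2.06 CPM (-3.37 ± 0.24) and Zbp1 from 10.5 and 9.27 to 1.18 and 1.32 CPM (-2.97 ± 0.35). Calr4 (108802), of the calreticulin family, went from 34.5 and 38.6 to 3.97 and 3.97 CPM (-3.20 ± 0.19), and Exph5 (320051), an effector of RAB27 in vesicle traffic, from 27.6 and 24.00 to 3.09 and 2.35 CPM (-3.24 ± 0.23). The fucosyltransferase gene Fut2 (14344) fell (-2.87 ± 0.33), as did Tex13b (83555), a testis-expressed gene of the X chromosome (-2.83 ± 0.33), and the noncoding Gm21283 (100861869), which overlaps Hydin (-3.08 ± 0.29). Hydin itself was lower (-0.998 ± 0.20). The plot of levels in each library shows all 24 genes.

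**Figure D2:**
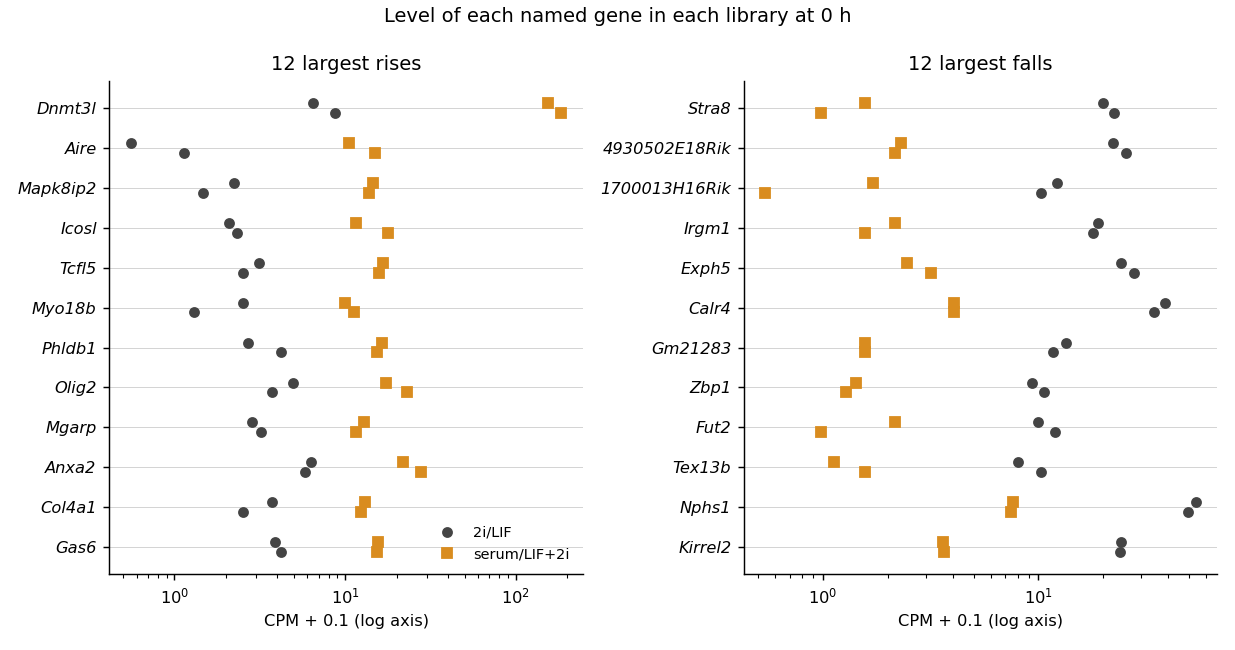
Level in each 0 h library (CPM + 0.1, log axis) of the 12 genes with the largest rise and the 12 with the largest fall, circles for 2i/LIF and squares for serum/LIF+2i. Genes whose media overlap could not be chosen (63.6% of all genes had no overlap), and the fitted difference between the media is 22.7-fold for Dnmt3l and 17.65-fold for Stra8.

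Measured in CPM, the changes of abundant transcripts were the largest. Ldha (16828), which turns pyruvate into lactate, went from 439.6 and 454 to 1268 and 1173 CPM, 2.73-fold (log2 1.45 ± 0.04, adjusted p 2.21e-63, edgeR). L1td1 (381591), an RNA-binding protein derived from LINE-1 and typical of ES cells, went from 342 and 354 to 705 and 628 CPM (0.94 ± 0.04). Pkm (18746), the pyruvate kinase gene, went from 1709.7 and 1719.6 to 2297 and 2169 CPM (0.38 ± 0.03). Nucleolin (Ncl, 0.23 ± 0.03), asparagine synthetase (Asns, 0.35 ± 0.04) and the DNA damage binding subunit Ddb1 (0.26 ± 0.03) completed the 6 largest rises in CPM. Among the falls, mitochondrially encoded COX1 went from 15125 and 15063 to 13006 and 13417 CPM (-0.19 ± 0.03) and the elongation factor gene Eef1a1 from 6905 and 6661 to 5115 and 5596 CPM (-0.34 ± 0.03). Others were ND1 (-0.29 ± 0.03), ND5 (-0.46 ± 0.05), the fatty acid desaturase Scd2 (-0.77 ± 0.04) and the elongation factor Eef2 (-0.20 ± 0.03). Eef1a1 has many processed pseudogenes, and ND5 overlaps ND6 on the other strand, so their values are less certain.

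Each count of calls in a list below stands against 14.6% of all genes called higher and 18.4% called lower. Naive pluripotency factors were expressed in both media. Of 14 naive factors, 6 were called higher and 3 lower, with a median log2 fold change of 0.06, next to -0.01 for all genes. Zfp42 (22702), the naive marker Rex1, went from 326 and 344 to 443 and 424 CPM (0.37 ± 0.04), and Klf4 (0.36 ± 0.04), Tbx3 (0.39 ± 0.05) and Nanog (0.27 ± 0.04) rose. The largest change in the list ran the other way. Dppa3 (73708), which protects maternal methylation marks and opposes UHRF1, went from 70.8 and 81.9 to 36.9 and 36.7 CPM (-1.06 ± 0.09), and the nuclear receptor Nr0b1 fell (-0.59 ± 0.06). Esrrb (-0.01 ± 0.04) and Tfcp2l1 (-0.04 ± 0.03) did not pass the test.

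Of 10 core pluripotency genes, 6 were called higher and 1 lower (median 0.16). Utf1 (22286), a chromatin factor of pluripotent cells, went from 20.5 and 19.4 to 45.7 and 46.1 CPM (1.20 ± 0.11), Lin28a (83557), which blocks let-7 maturation, from 73.9 and 78.2 to 118 and 108 CPM (0.57 ± 0.05), and the Nodal coreceptor Tdgf1 rose by 0.47 ± 0.05. Dppa2 (73703), a chromatin factor of early embryos, fell from 41.2 and 41.01 to 25.9 and 26.9 CPM (-0.64 ± 0.10). The rise of Sox2 (0.17 ± 0.04), which overlaps Sox2ot, was no longer called without replicate 1 of 2i/LIF (adjusted p 0.0676, edgeR) or without replicate 1 of serum/LIF+2i (adjusted p 0.113, edgeR).

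The 17 formative and primed genes, which mark the next state of the epiblast, split into 5 higher and 7 lower. Their median was -0.41, or -0.15 once 3 members at or under 3 counts in all 4 libraries were set aside, and it was 0.00 without replicate 1 or without replicate 2 of 2i/LIF and -0.14 with limma-voom. Nodal (18119) went from 53.3 and 56.7 to 90.7 and 95.2 CPM (0.76 ± 0.08) and Foxd3 (15221) from 13.6 and 12.00 to 28.2 and 24.5 CPM (1.05 ± 0.15). Lef1 (16842), a nuclear partner of beta-catenin, went from 24.99 and 28.3 to 11.8 and 12.2 CPM (-1.16 ± 0.14), and Sall2 rose by 0.83 ± 0.17. Zic2 (22772), a zinc finger factor, went from 42.4 and 41.5 to 18.5 and 16.01 CPM (-1.28 ± 0.19), while Otx2, which opens formative enhancers, was low in both media and rose from 0.345 and 0.759 to 1.62 and 2.20 CPM (1.73 ± 0.55). The de novo methyltransferases moved in opposite directions, Dnmt3b up (0.32 ± 0.05) and Dnmt3a down (-0.41 ± 0.06), though Dnmt3b was not called with limma-voom (adjusted p 0.101). Fgf5, Fgf15 and Car4 were at or under the floor of 3 counts in all 4 libraries.

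Of 18 tested genes of DNA methylation and its removal, 5 were higher and 7 lower (median -0.09). Beside Dnmt3l, the largest change was that of Apobec2 (11811), of the cytidine deaminase family, from 19.99 and 20.5 to 5.14 and 6.32 CPM (-1.82 ± 0.19). Zfp57 (0.33 ± 0.04) and Trim28 (0.19 ± 0.03), which guard methylation at imprinted regions, rose. The maintenance methyltransferase Dnmt1 (-0.17 ± 0.04) and its targeting factor Uhrf1 (-0.16 ± 0.04) fell, and Tet2, a methylcytosine dioxygenase, rose by 0.40 ± 0.09. Tet1 (-0.03 ± 0.04) did not pass the test. No methylation was measured.

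Many germline genes are silenced by DNA methylation in somatic cells and are partly active in naive ES cells. Of 33 listed genes 30 passed the filter, of which 10 were lower, 2 higher and 18 not called, with a median of -0.64. Stra8, chosen above as the largest fall, is one of the 10. The share called was 40.0%, against 33.0% of all genes, of which 18.4% were called lower. Dazl (13164), an RNA-binding protein of germ cells, went from 53.1 and 55.6 to 14.5 and 10.6 CPM (-2.11 ± 0.12), Sohlh2 (74434), a germ cell transcription factor, from 23.3 and 18.99 to 5.29 and 5.43 CPM (-1.97 ± 0.18), and Rhox5 (18617), an X-linked homeobox gene, from 63.9 and 71.1 to 32.3 and 30.1 CPM (-1.12 ± 0.08). Tuba3a (-1.81 ± 0.13) and Rpl10l (-1.23 ± 0.07) fell too, but each has close relatives that could share reads. Brdt, a testis bromodomain protein, rose from 0.862 and 1.06 to 3.09 and 3.38 CPM (1.72 ± 0.48) and Tex101 by 2.75 ± 0.93 from under 1 CPM. Ddx4 (-0.31 ± 0.28), Hormad1 (-0.12 ± 0.15) and Stag3 (-0.14 ± 0.09) did not pass the test.

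Promoters were read from RefSeq (GRCm38.p6) for 26 of the 30 genes. The 10 that fell held a median of 9 CpG (0 to 29) in the 250 bases before the start, and the 16 others held 19 (10 to 31). The median of all 10940 tested genes with a promoter was 17, so the 10 that fell were not rich in CpG as a group. Where a gene had several starts, the start with the most CpG was taken. The E-box CACGTG, its own reverse complement and an E-box bound by MAX with its partners, stood in 2 of the 10 that fell, 10 of 14 not called and 1 of 2 that rose, and in 9.95% of all 10940 genes with a promoter. A match is a description of the letters and not a bound site. Windows of 120 bases are shown for a gene that fell without the motif (Rhox5, CpG in capitals), a gene that fell with it (Fkbp6) and a pair not called (Hormad1 and Sycp1). In Fkbp6, Hormad1 and Sycp1 the capitals are CACGTG. None of the 4 windows overlaps an annotated exon.
Rhox5 chrX:37754488-37754607 (+): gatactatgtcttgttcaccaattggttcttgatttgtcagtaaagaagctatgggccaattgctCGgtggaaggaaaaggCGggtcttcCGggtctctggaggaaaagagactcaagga
Fkbp6 chr5:135350051-135350170 (-): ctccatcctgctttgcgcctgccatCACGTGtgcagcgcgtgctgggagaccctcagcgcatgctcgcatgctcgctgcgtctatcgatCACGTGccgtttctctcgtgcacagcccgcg
Hormad1 chr3:95559557-95559676 (+): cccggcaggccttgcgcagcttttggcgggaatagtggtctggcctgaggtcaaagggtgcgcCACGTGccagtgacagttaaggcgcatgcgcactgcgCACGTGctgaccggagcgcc
Sycp1 chr3:102936132-102936251 (-): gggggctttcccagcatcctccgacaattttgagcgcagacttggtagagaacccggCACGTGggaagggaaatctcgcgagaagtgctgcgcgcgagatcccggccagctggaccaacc
Fkbp6 stood at 27.2 and 24.3 CPM in 2i/LIF and 17.2 and 15.1 CPM in serum/LIF+2i (-0.67 ± 0.14), and Sycp1 at 5.51 and 8.35 CPM against 4.70 and 4.99 CPM (-0.53 ± 0.25).

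Imprinted genes are expressed from 1 parental allele. Of 28 tested, 9 were lower and 3 higher (42.9% called, against 33.0% of all genes). The median was -0.30, but -0.20 without replicate 1 of 2i/LIF and -0.18 without replicate 1 of serum/LIF+2i. The noncoding transcripts of the Dlk1-Meg3 region fell together: Meg3 went from 214 and 204 to 129 and 129.7 CPM (-0.69 ± 0.05), Rian from 252 and 246 to 154 and 156 CPM (-0.68 ± 0.05) and Mirg fell (-0.85 ± 0.16). Peg3 (18616), a paternally expressed zinc finger gene, went from 72.04 and 70.02 to 26.9 and 34.96 CPM (-1.20 ± 0.08), and Impact (-0.35 ± 0.05) and Peg10 (-0.61 ± 0.10) fell. Grb10, an adaptor that restrains insulin signalling, rose by 0.50 ± 0.09. Meg3, Rian and Peg3 each overlap other annotated transcripts.

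Most cholesterol genes were lower. Cells make cholesterol through the mevalonate pathway or take it up from lipoproteins, and the SREBP transcription factors switch both on when membrane sterol runs low. Of 28 tested genes 23 were called lower and 0 higher (of the remaining 5, 3 had values below 0 and 2 above), with a median of -0.48. Cyp51 (13121), lanosterol demethylase, went from 184 and 189 to 96.4 and 101 CPM (-0.92 ± 0.05, adjusted p 9.77e-32, edgeR). Also lower were Dhcr7 (13360), which forms cholesterol in the last step (-0.94 ± 0.06), Ebp (13595), a sterol isomerase (-1.06 ± 0.08), and Insig1 (231070), the sterol-sensing anchor of SREBP (-0.82 ± 0.05). Srebf2, the regulator itself, fell too (-0.26 ± 0.04). Pmvk (0.23 ± 0.10), Mvd (-0.18 ± 0.08), Idi1 (-0.26 ± 0.18), Hsd17b7 (-0.14 ± 0.14) and Insig2 (0.06 ± 0.13) did not pass the test.

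The letters of a sterol regulatory element are shown for Hmgcs1, the only member with the letters TCACNCCAC on either strand among 20 with a RefSeq promoter, where 1.3% of all promoters held it. Absence of these letters from a window says nothing about SREBP binding. The window lies outside annotated genes, and the match is in capitals.
Hmgcs1 chr13:119690158-119690277 (+): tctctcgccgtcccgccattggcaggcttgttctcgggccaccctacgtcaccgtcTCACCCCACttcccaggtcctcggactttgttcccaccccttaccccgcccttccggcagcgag
Hmgcs1, an early synthase of the mevalonate pathway, went from 510.3 and 502 to 377 and 403 CPM (-0.38 ± 0.04).

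Fatty acid genes were more often lower than higher. Of 21 tested 12 were lower and 2 higher (median -0.34). The largest called falls were those of desaturases, Scd1 (20249) from 561 and 561 to 261 and 294 CPM (-1.01 ± 0.04), Fads2 (56473) from 125 and 121 to 60.4 and 64.5 CPM (-0.98 ± 0.06), Fads1 (-0.79 ± 0.05) and Scd2 from 1788 and 1776 to 970.4 and 1115 CPM. Acly (104112), which makes cytosolic acetyl-CoA from citrate, went from 1135 and 1178 to 743 and 777 CPM (-0.61 ± 0.03), and the regulator Srebf1 fell (-0.69 ± 0.06). Fasn, the fatty acid synthase, fell (-0.27 ± 0.04). The exceptions were the lipase Pnpla3 (0.68 ± 0.14) and the elongase Elovl5 (0.22 ± 0.05). LXR targets export sterol. Of 7 tested, 5 were lower and 0 higher (median -0.35), though 3 were lower without replicate 1 of 2i/LIF or without replicate 2 of serum/LIF+2i, with Apoe (11816) from 884 and 886 to 537 and 549 CPM (-0.71 ± 0.04) and the sterol exporter Abcg1 (11307) from 16.7 and 17.2 to 4.85 and 4.85 CPM (-1.80 ± 0.20). The calls of Abca1 and Nr1h2 ended under several alternatives.

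Of 30 tested glycolysis and hypoxia genes, 15 were higher, 4 lower and 11 not called (median 0.21). Beside Ldha and Pkm, Pfkl and Pfkp (0.61 ± 0.04), which commit sugar phosphate to glycolysis, Eno1 (0.56 ± 0.04), Pgam1 (0.73 ± 0.09) and Tpi1 (0.32 ± 0.04) rose. The lactate exporter Slc16a3 (80879) went from 14.1 and 13.1 to 33.4 and 25.1 CPM (1.11 ± 0.14) and Bnip3 (12176), a mitophagy receptor induced by hypoxia, from 9.82 and 8.51 to 19.98 and 15.4 CPM (0.95 ± 0.17). The list was not uniform. Ldhb (16832), the subunit that favours lactate use, went from 228 and 236 to 128 and 138 CPM (-0.80 ± 0.05), the hexokinase Hk1 from 244 and 249 to 176 and 181 CPM (-0.47 ± 0.05), and the hypoxia targets Pdk1 (-0.50 ± 0.08) and Egln3 (-0.69 ± 0.19) fell. Hk2 (0.05 ± 0.04), Vegfa (-0.12 ± 0.10) and Slc16a1 (0.06 ± 0.05) did not pass the test. Gapdh, at 17.9 and 15.8 CPM in 2i/LIF and 33.5 and 22.03 CPM in serum/LIF+2i, did not pass the test, and its many pseudogenes leave it uncertain.

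**Figure D3:**
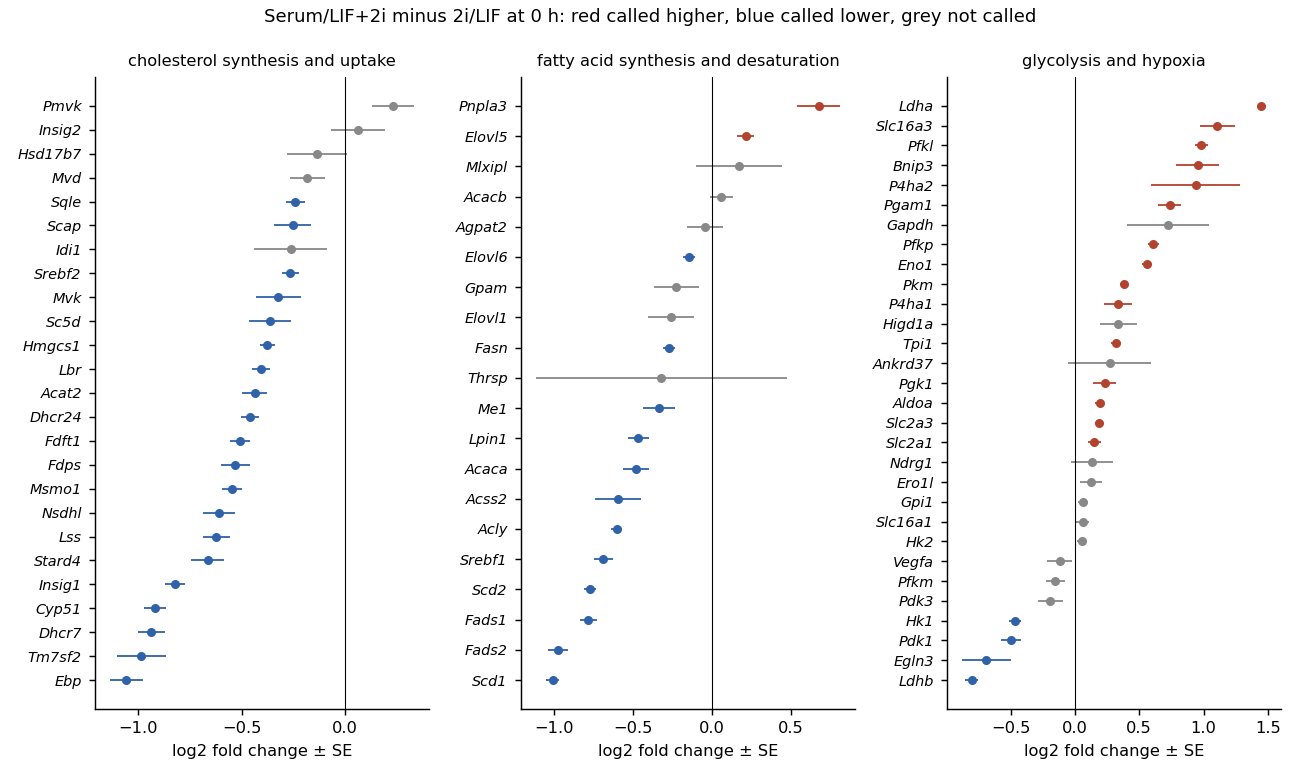
Log2 fold change at 0 h with its SE (bars) for members of 3 metabolic lists, red called higher, blue called lower and grey not called; Fads3, with an SE over 1, is left out, as are members not reported here. All cholesterol genes drawn lie left of 0 except Pmvk and Insig2, while Ldha at 1.45 heads a glycolysis list with Ldhb at the other end.

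The letters ACGTG, the core of the hypoxia response element, were in the 250 bases before the start of 18 of 28 glycolysis and hypoxia genes (64.3%) and of 2734 of all 10940 genes with a promoter, counting both strands and including the E-box CACGTG, which holds them. They stood in 10 of 14 members called higher, 1 of 4 called lower and 7 of 10 not called. Windows with the matches in capitals are shown for Ldha, Pgk1 and Bnip3, all called higher. The Ldha window lies inside the annotated Ldha gene but outside its exons, and the others lie outside annotated genes.
Ldha chr7:46845659-46845778 (+): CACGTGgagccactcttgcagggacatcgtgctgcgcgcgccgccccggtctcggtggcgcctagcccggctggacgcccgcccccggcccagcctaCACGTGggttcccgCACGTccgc
Pgk1 chrX:106186902-106187021 (+): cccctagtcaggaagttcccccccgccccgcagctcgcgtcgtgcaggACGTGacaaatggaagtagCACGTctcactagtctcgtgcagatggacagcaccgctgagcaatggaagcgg
Bnip3 chr7:138909552-138909671 (-): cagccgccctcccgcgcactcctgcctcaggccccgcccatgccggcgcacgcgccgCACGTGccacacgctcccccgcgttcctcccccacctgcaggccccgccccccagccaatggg
Pgk1, phosphoglycerate kinase, went from 47.9 and 48.8 to 58.5 and 55.1 CPM (0.23 ± 0.09).

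Of 13 listed mitochondrially encoded genes 5 did not pass the filter on low counts, for reasons that were not tested. Of the 8 tested, 7 were lower and 0 higher (median -0.32), among them ND2 (-0.35 ± 0.04) and ND3 (-0.70 ± 0.12), while CYTB did not pass the test (0.04 ± 0.03). Their summed share of counts was 3.23% and 3.26% in the libraries without serum and 2.79% in each library with serum. Ribosomal RNA shares overlapped between the media. Fewer mitochondrial transcripts per cell and fewer cells rich in them cannot be told apart in bulk RNA, and the same holds for every group below.

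Of 15 tested Wnt targets, which CHIR99021 keeps active in both media, 9 were called lower, 0 higher and 6 did not pass the test (median -0.54). Cdx1 (12590), a caudal homeobox gene, went from 183 and 178 to 54.7 and 46.7 CPM (-1.83 ± 0.08), Sp5 (64406), a zinc finger target of beta-catenin, from 92.4 and 96.6 to 48.8 and 41.6 CPM (-1.07 ± 0.09), and Axin2 (12006), the feedback inhibitor, from 227 and 229 to 155 and 158 CPM (-0.54 ± 0.05). The secreted Wnt inhibitor Notum (-0.83 ± 0.06), the cyclin Ccnd1 (-0.41 ± 0.04) and T, or brachyury (-0.79 ± 0.15), fell. Nkd1 (-0.57 ± 0.34) and Rnf43 (-0.45 ± 0.28) did not pass the test.

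Of 14 tested ERK response genes, 6 were lower and 1 higher (50.0% called, against 33.0% of all genes). Their median was -0.39, or -0.29 with 1 member at the floor set aside. Dusp6 (67603), the ERK phosphatase, went from 8.27 and 7.14 to 2.50 and 3.08 CPM (-1.45 ± 0.26), and Spred2 (-0.51 ± 0.08) and Etv4 (-0.70 ± 0.17) fell. Egr1 stood at or under 3 counts in all 4 libraries and Fos did not pass the filter. The number lower was 4 with DESeq2, with upper quartile scaling or with the 4 libraries at 0 h alone, and 5 with limma-voom. Without replicate 2 of 2i/LIF the median was -0.23, and the calls of Spry2 and Phlda1 ended under several alternatives.

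The LIF and STAT3 list gave 3 higher and 5 lower of 15 (median 0.01, and -0.05 without replicate 2 of 2i/LIF). Socs2 (216233) went from 64.8 and 63.2 to 31.4 and 33.05 CPM (-0.99 ± 0.09), Gbx2 (14472) from 52.7 and 50.6 to 28.8 and 17.9 CPM (-1.14 ± 0.11) and Stat3 (20848) from 187 and 169.8 to 126 and 123 CPM (-0.51 ± 0.06). Socs3, the main feedback inhibitor, did not pass the test (0.12 ± 0.09). The receptor gene Lifr rose by 0.26 ± 0.06, and its coreceptor Il6st fell (-0.14 ± 0.05).

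In the Activin, Nodal and TGF-beta list 1 of 17 was higher and 8 lower (median -0.39, but -0.25 without replicate 1 of 2i/LIF), and with DESeq2 5 were lower. The ligand Nodal rose, as above, while its inhibitor and target Lefty1 (13590) went from 21.9 and 26.4 to 7.05 and 6.61 CPM (-1.83 ± 0.16). The matrix protein gene Tgfbi (-1.34 ± 0.25), the Activin trap Fst (-0.62 ± 0.10) and the corepressor Ski (-0.46 ± 0.06) fell. Lefty2 (0.07 ± 0.08) did not pass the test. The BMP list of 14 gave 2 higher and 2 lower (28.6% called, against 33.0% of all genes), and its direct targets Id1 (-0.39 ± 0.32), Id2 (0.45 ± 0.19) and Id3 (-0.47 ± 0.24) did not pass the test.

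Of 19 tested retinoic acid genes 9 were lower and 1 higher. Their median was -0.83, or -0.74 with 3 members at the floor set aside, and it depended on single libraries, at -0.42 and -0.45 without replicate 1 or replicate 2 of 2i/LIF and -0.45 without replicate 1 of serum/LIF+2i. Beside Stra8, Rarg (19411), a retinoic acid receptor, went from 64.3 and 68.96 to 27.3 and 28.5 CPM (-1.26 ± 0.08), and Aldh1a2 (19378), which makes retinoic acid, from 18.8 and 19.4 to 6.32 and 6.46 CPM (-1.58 ± 0.19). Rara (-0.58 ± 0.10) and the binding protein Crabp2 (-2.16 ± 0.56) fell, while Rxra rose by 0.37 ± 0.13. Cyp26a1, the enzyme that clears retinoic acid, did not pass the filter.

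Targets of SRF, which reads the actin state of the cell, were higher in 8 of 19 cases and lower in 1. That was 47.4% called, against 33.0% of all genes, with a median of 0.23, or 0.18 with 2 members at the floor set aside. Flna (192176), filamin A, went from 585 and 566 to 819.7 and 819.6 CPM (0.51 ± 0.04) and Cnn2 (12798), a calponin, from 12.1 and 7.59 to 34.1 and 31.9 CPM (1.76 ± 0.15), and Tpm1 (0.69 ± 0.08), Tpm4 (0.45 ± 0.06), Tagln2 (0.58 ± 0.08) and Vcl (0.29 ± 0.05) rose. Actb did not pass the test (0.05 ± 0.03). Of 15 YAP and TEAD response genes 7 were higher and 2 lower (median 0.34), among them Amotl2 (56332) from 120.3 and 121 to 187 and 184 CPM (0.62 ± 0.05), Ptpn14 (0.95 ± 0.09) and Ccn1 (16007) from 8.79 and 10.3 to 19.98 and 20.3 CPM (1.07 ± 0.17). Ccn2 did not pass the test (-0.02 ± 0.12), and the cofactor gene Wwtr1 fell (-0.44 ± 0.07). The medians rest on single libraries: the SRF value was 0.09 once replicate 2 of serum/LIF+2i was left out, and the YAP value 0.10 once replicate 2 of 2i/LIF was and 0.13 once replicate 2 of serum/LIF+2i was.

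Matrix and adhesion genes gave 14 higher and 6 lower of 30 (median 0.24). Col18a1 (12822) went from 91.3 and 94.02 to 183 and 195 CPM (1.03 ± 0.05), and the basement membrane genes Hspg2 (0.49 ± 0.04), Lama5 (0.40 ± 0.04) and Lamc1 (0.23 ± 0.03) and the laminin receptor subunit Itga3 (0.99 ± 0.11) rose. The fibronectin receptor subunit Itga5 (16402) fell, from 96.2 and 102 to 46.6 and 49.6 CPM (-1.05 ± 0.07), as did its ligand Fn1 (-0.16 ± 0.03), vimentin (Vim, -0.63 ± 0.05) and E-cadherin (Cdh1, -0.25 ± 0.04). Nid1 (0.01 ± 0.04) and Lama1 (0.02 ± 0.06) did not pass the test.

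**Figure D4:**
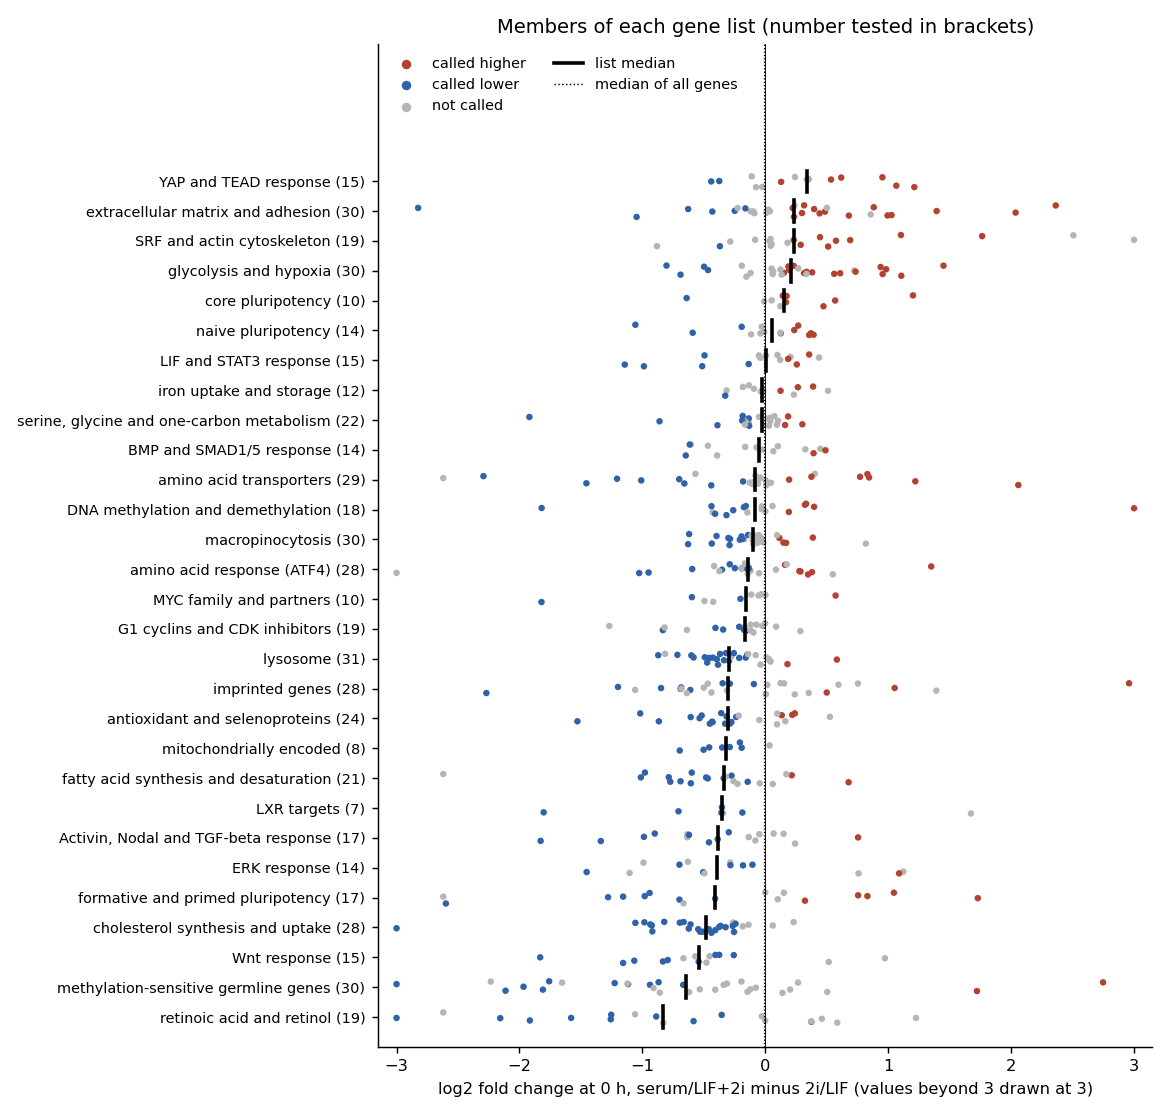
Log2 fold change at 0 h of every tested member of 29 gene lists (points, red called higher, blue called lower, grey not called), with the list median as a bar and the median of all genes as a dotted line at -0.01; values beyond 3 are drawn at 3. Medians run from -0.83 for retinoic acid genes to 0.34 for YAP and TEAD genes.

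Genes that handle amino acids differed in both directions at 0 h. Of 29 amino acid transporters 7 were higher and 8 lower (51.7% called, against 33.0% of all genes). The median was -0.08, but -0.04 without replicate 1 of 2i/LIF and -0.03 without replicate 1 of serum/LIF+2i. Slc7a6 (330836), an exchanger of cationic and neutral amino acids, went from 39.98 and 44.2 to 80.7 and 70.9 CPM (0.84 ± 0.08), and Slc38a1, a glutamine importer, rose by 0.38 ± 0.05. Slc43a1 (72401), a carrier of large neutral amino acids, went from 15.5 and 13.5 to 4.41 and 1.47 CPM (-2.29 ± 0.24), and Slc1a4 (-0.70 ± 0.09), the creatine carrier Slc6a8 (-0.44 ± 0.05) and the aromatic carrier Slc16a10 (-1.46 ± 0.25) fell. The abundant carriers Slc7a5 (-0.04 ± 0.04), Slc3a2 (-0.10 ± 0.05), Slc1a5 (-0.05 ± 0.05) and Slc38a2 (0.00 ± 0.04) did not pass the test.

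The ATF4 response, which is turned on when amino acids run short, gave 6 higher and 9 lower of 28 (median -0.14). Asns rose from 1269 and 1266 to 1592 and 1634 CPM, Eif4ebp1 by 0.38 ± 0.04 and the transsulfuration enzyme Cth by 0.29 ± 0.05, while Atf4 (-0.19 ± 0.04), Cbs (-0.29 ± 0.06) and Gpt2 (-0.25 ± 0.06) fell. Chac1 (-0.37 ± 0.19) and Ddit3 (-0.42 ± 0.19) did not pass the test. In serine, glycine and one-carbon metabolism 3 of 22 were higher and 7 lower (45.5% called, against 33.0% of all genes, of which 14.6% were called higher). The median was -0.03, but 0.03 with upper quartile scaling and 0.01 without replicate 1 of 2i/LIF. Bhmt (12116), which remethylates homocysteine with betaine, went from 14.5 and 16.1 to 3.97 and 4.11 CPM (-1.92 ± 0.24), its neighbour Bhmt2 fell (-0.86 ± 0.17), and the threonine enzymes Gcat (-0.39 ± 0.05) and Tdh (-0.13 ± 0.04) fell.

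Lysosomal genes were lower in 19 of 31 cases and higher in 2 (median -0.29). Grn (14824), progranulin, went from 333 and 329.6 to 194 and 209 CPM (-0.71 ± 0.05), Npc2 (67963), which hands lysosomal cholesterol on, from 536 and 543 to 355 and 366 CPM (-0.58 ± 0.04), and Ctsc (13032), a cathepsin, from 119 and 132 to 65.2 and 72.1 CPM (-0.87 ± 0.08). Ctsb (-0.46 ± 0.05) and Ctsa (-0.39 ± 0.05) fell, and the regulator Tfeb fell (-0.49 ± 0.11). Gaa, the acid glucosidase, rose by 0.58 ± 0.07, and Ctsd, the main aspartic protease, did not pass the test (0.04 ± 0.04). Genes of macropinocytosis, the bulk uptake of fluid, gave 4 higher and 11 lower of 30 (50.0% called, against 33.0% of all genes, median -0.10). The number lower was 7 with DESeq2 and without replicate 1 of 2i/LIF, replicate 2 of 2i/LIF or replicate 2 of serum/LIF+2i, and 6 with upper quartile scaling, and the median was -0.06 without replicate 1 of 2i/LIF. The Rac activator Dock1 (330662) went from 155 and 157 to 101 and 102 CPM (-0.62 ± 0.06), Snx1 fell (-0.44 ± 0.07), and Cdc42 rose by 0.17 ± 0.04, while Rac1 did not pass the test (-0.07 ± 0.05).

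Antioxidant genes and selenoproteins gave 15 lower and 3 higher of 24 (median -0.30), with 5 higher without replicate 2 of serum/LIF+2i. Selenow (20364), a small selenoprotein, went from 107 and 112 to 53.8 and 54.5 CPM (-1.02 ± 0.07) and Srxn1 (76650), sulfiredoxin, from 91.9 and 75.5 to 44.8 and 46.6 CPM (-0.87 ± 0.08). Gsr (-0.52 ± 0.04), Gpx1 (-0.43 ± 0.04), Cat (-0.43 ± 0.05) and the NRF2 target Nqo1 (-0.45 ± 0.05) fell, and so did Nfe2l2, which encodes NRF2 (-0.32 ± 0.05). Sod1 rose by 0.24 ± 0.04, and Hmox1 did not pass the test (-0.05 ± 0.07). The letters TGACNNNGC of the antioxidant response element were in 6 of 20 promoters (30.0%) against 14.0% of all. Of 12 iron genes 3 were higher and 1 lower (33.3% called, the same level as the 33.0% of all genes), among them the transferrin receptor Tfrc from 731 and 705 to 892 and 833 CPM (0.27 ± 0.04).

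Of 19 G1 cyclins and their inhibitors 6 were lower and 0 higher (median -0.17; 31.6% called, against 33.0% of all genes called and 18.4% called lower), with Cdkn1a (-0.34 ± 0.04), Cdkn2a (-0.83 ± 0.12) and Cdk4 (-0.16 ± 0.04) lower. With DESeq2, with upper quartile scaling or without replicate 1 of 2i/LIF 4 were lower, and the calls of Rbl1 and E2f1 ended under several alternatives. In the MYC family, 1 of 10 was higher and 3 lower (40.0% called, against 33.0% of all genes). With DESeq2 1 was lower, and the lower calls did not all hold once a library was left out. Mycn (18109) went from 79.8 and 79.6 to 126 and 111 CPM (0.57 ± 0.07).

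Markers of other cell types were summed in each library. Primitive endoderm markers summed to 12.6 and 13.4 CPM in 2i/LIF and 13.2 and 14.1 CPM in serum/LIF+2i over 14 genes, with Afp and Ttr at 0 counts, and 2 of 7 tested were called in each direction. Trophoblast markers summed to 98.6 and 96.9 CPM against 107 and 102.2 CPM, with Plac1 and Prl3d1 at 0, and 3 of 8 tested were higher and 1 lower, among them Tfap2a (21418) from 10.7 and 10.6 to 24.4 and 26.9 CPM (1.26 ± 0.16). Mesoderm and primitive streak markers summed to 46.7 and 37.7 CPM against 33.9 and 27.8 CPM, with Mesp1 at 0, and 1 of 5 tested was called in each direction. Neurectoderm markers summed to 65.0 and 67.6 CPM against 66.4 and 61.98 CPM, with Neurog2 at 0, and 2 of 5 tested were higher and 1 lower. In that list Sox1 went from 0.862 and 0.456 to 3.82 and 4.85 CPM (2.72 ± 0.45) and Nes from 12.2 and 14.4 to 28.9 and 28.8 CPM (1.11 ± 0.14), while Tubb3 fell (-0.87 ± 0.10). Fibroblast markers summed to 18.6 and 17.2 CPM against 9.40 and 10.9 CPM, with Dcn, Col6a1, Col6a2, Postn, Prrx1 and Fap at 0, and 1 of 8 tested was higher and 2 lower. Of 13 tested 2-cell-like markers, 5 were lower and 0 higher, most of them near-identical copies at low counts. Their sum of 375 to 391 CPM was nearly all Eif1a, and Zscan4a went from 2.24 and 3.80 to 0.735 and 0.734 CPM (-2.04 ± 0.47). The part of these cell types in any result above was not tested.

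The medium difference did not stay as it was at 0 h. After release all cells were in serum-free medium without 2i or LIF, though the base of that medium differed by origin and the protocol in the labels gives no 12 h collection for cells from serum/LIF+2i, whose titles were followed. The number of genes called was 4334 (30.3%) at 12 h, then 4439 (31.1%) at 24 h and 3897 (27.3%) at 40 h. Of all genes, 14.8% were called higher and 15.5% lower at 12 h, 14.1% and 17.0% at 24 h, and 13.9% and 13.4% at 40 h. The change of the difference from 0 to 12 h, a contrast of contrasts that shares the 0 h libraries, was called in 1315 genes (9.20%), 686 more positive (4.80%) and 629 more negative (4.40%).

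Among the 12 largest rises at 0 h, the change by 12 h was called for Dnmt3l, Aire, Icosl, Phldb1 and Mgarp, each toward a smaller difference. These genes were chosen by their difference at 0 h, which enters the change, so movement toward 0 was favoured by the choice. The calls of Phldb1 and Mgarp did not hold under every alternative. Dnmt3l went from 4.50 ± 0.20 at 0 h to 1.33 ± 0.09 at 12 h and 1.08 ± 0.09 at 40 h (change by 12 h -3.17 ± 0.24, adjusted p 4.44e-05, edgeR), so it remained higher in cells from serum/LIF+2i throughout. Aire went from 4.09 ± 0.34 to 0.98 ± 0.14 at 12 h and -0.75 ± 0.18 at 40 h. For Anxa2 and Col4a1 no change was called by 12 h. Anxa2 had 2.36 ± 0.18, 2.19 ± 0.39 and 0.69 ± 0.43 at 12, 24 and 40 h and did not pass the test at 40 h, and Col4a1 had 2.20 ± 0.14, 1.62 ± 0.14 and 0.48 ± 0.11, called at each time.

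Among the 12 largest falls the change was called for Stra8, Irgm1, Exph5, Gm21283, Nphs1 and Kirrel2. The same limit of the choice applies, and the calls of Irgm1 and Gm21283 did not hold under every alternative. Stra8 turned around, from -4.14 ± 0.30 at 0 h to -1.66 ± 0.19 at 12 h, 0.33 ± 0.11 at 24 h and 1.79 ± 0.10 at 40 h. Nphs1 went from -2.80 ± 0.13 to -0.85 ± 0.08 at 12 h, -0.14 ± 0.07 at 24 h, when it did not pass the test, and -0.35 ± 0.07 at 40 h, when it was called lower again. The X-linked pair stayed lower at every time, with 4930502E18Rik at -3.38 ± 0.34 and -1.44 ± 0.23 and 1700013H16Rik at -5.30 ± 0.47 and -2.67 ± 0.30 at 12 and 40 h.

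**Figure D5:**
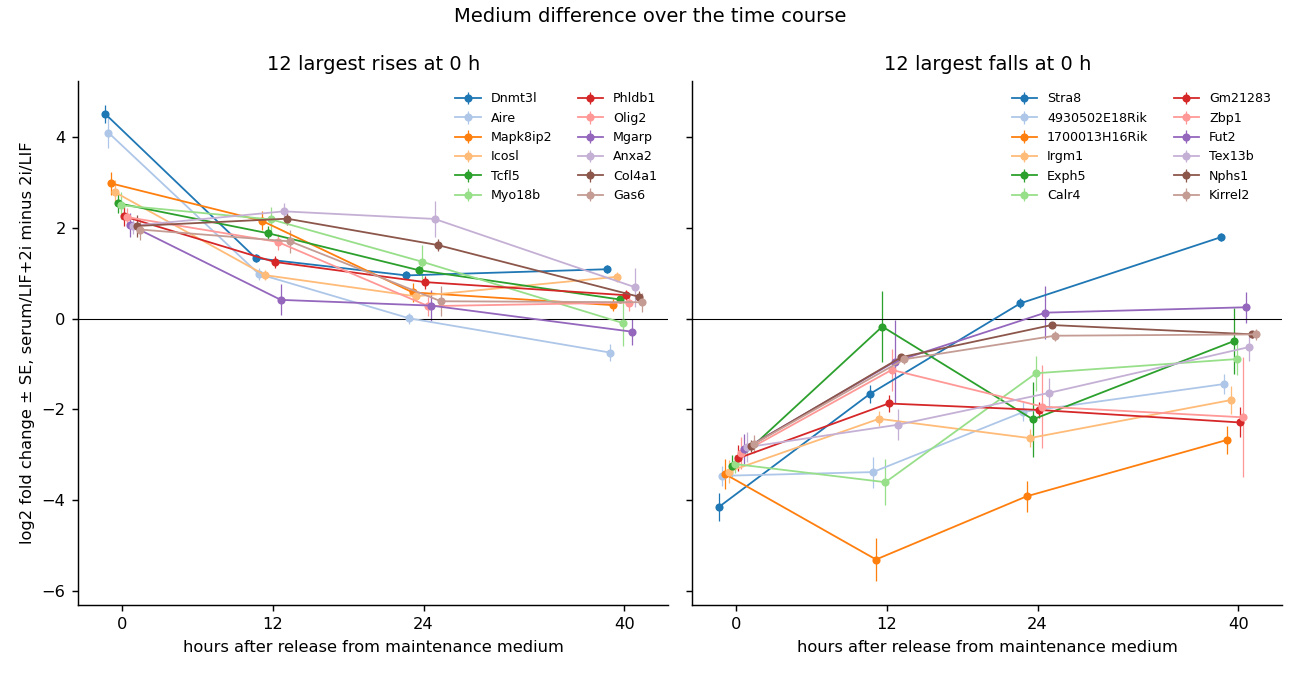
Log2 fold change between the media (serum/LIF+2i minus 2i/LIF, with SE bars) at 0, 12, 24 and 40 h after release for the 12 genes with the largest rise and the 12 with the largest fall at 0 h; points are shifted sideways for clarity. Most lines approach 0, which the choice of genes by their 0 h difference favours. Dnmt3l levels off near 1, and Stra8 crosses from -4.14 to 1.79.

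Gene groups followed different courses after release. The cholesterol list kept medians below 0, at -0.18, -0.25 and -0.18 at 12, 24 and 40 h. Of its 28 members 17, 20 and 16 were called lower and 0 higher, where 15.5%, 17.0% and 13.4% of all genes were called lower. By 12 h 14 of 28 had a called change of the difference, each in the positive direction (4.80% of all genes). Of the desaturases, Scd1 had -0.13 ± 0.04 and -0.03 ± 0.04 at 12 and 40 h, and Scd2 had -0.08 ± 0.04 and 0.13 ± 0.04. The glycolysis median changed sign, from 0.21 to 0.00 at 12 h and -0.26 at 40 h, when 19 of 30 were lower and 4 higher, and Ldha went from 1.45 ± 0.04 at 0 h to 1.29 ± 0.04, 0.32 ± 0.04 and -0.47 ± 0.04. Retinoic acid genes went from a median of -0.83 to 0.07, 0.31 and 0.60, and germline genes from -0.64 to -0.22, 0.48 and 0.35. The ATF4 list, with 6 higher and 9 lower at 0 h, had 10 higher and 4 lower at 12 h and 27 higher and 0 lower of 28 at 24 h, where 14.8% and 14.1% of all genes were called higher.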

How the data were processed

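RNA-seq of 16 libraries, 2 for each of 8 groups, was analysed from the deposited table of raw counts per gene. Per the submitters' processing notes the authors used fastp, STAR, featureCounts and mm10, without versions. Per the labels' protocols the libraries were stranded mRNA libraries. Whether the counting used strand is not given in the sources used here. Groups were taken from sample titles.

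Of 27179 genes, 14288 passed edgeR's filterByExpr over all 16 libraries. It asks for a level worth 10 counts at the median library size in at least 2 libraries, and 15 counts in total. Genes could pass through later times alone, and 487 tested genes were at or under 3 counts in all 4 libraries at 0 h. Counts were scaled by TMM and fitted with edgeR 4.0.16 (R 4.3.3; robust quasi-likelihood F test, two-sided, one term per group, all 16 libraries, 8 residual degrees of freedom), and p-values were Benjamini-Hochberg adjusted over all tested genes. Calls are at an adjusted p under 0.05. CPM uses the scaled library sizes, and fold changes are serum/LIF+2i over 2i/LIF. Each SE was derived from the test, as the absolute log2 fold change divided by the square root of its F statistic. A floor of 3 counts per library was 0.441 to 0.517 CPM at 0 h and covers counting error only. In a simulation of the 0 h difference on 14288 genes, 75.8% of genes changed by 0.5 (log2), 97% of those changed by 1 and 100% of those changed by 2 were called. The changed genes were drawn only from those at 5 CPM or more, so these shares do not cover genes at lower levels. Counts were drawn with the dispersions fitted to these same libraries, and 7 unchanged genes were called.

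Named genes are the 12 largest rises and falls in log2 fold change and the 6 largest in CPM, among called genes at 5 CPM or more without overlap between media, and from each list its key members and at most 6 members chosen by smallest adjusted p. The comparison, its gene lists and this rule were chosen with earlier results of these data known. Promoters came from RefSeq and positions and overlaps from the annotation of GRCm38.p6. Alternatives were DESeq2 1.42.0, limma-voom (limma 3.58.1), other scalings and filters, the 4 libraries alone, a replicate block and each 0 h library left out. Some members of the lists are counted but not reported by name here.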

Additional observations from a re-analysis of the deposited data

Results flagged for a closer look

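For 11 of the 24 genes with the largest medium difference at 0 h, the difference itself had changed by 12 h, tested as a contrast of contrasts (edgeR, adjusted over all genes). The change was negative for 5 genes that were higher in serum/LIF+2i. It was -3.17 ± 0.24 (SE) for Dnmt3l, -3.11 ± 0.41 for Aire, -1.83 ± 0.30 for Icosl, -1.003 ± 0.27 for Phldb1 and -1.64 ± 0.45 for Mgarp, on the log2 scale. It was positive for 6 genes that were lower, at 2.48 ± 0.43 for Stra8, 1.16 ± 0.35 for Irgm1, 3.06 ± 0.90 for Exph5, 1.21 ± 0.39 for Gm21283, 1.95 ± 0.16 for Nphs1 and 1.86 ± 0.23 for Kirrel2. The Phldb1 change was -0.68 without replicate 2 of 2i/LIF at 0 h (adjusted p 0.228, edgeR). Under DESeq2 the adjusted p was 0.0652 for Mgarp and 0.0957 for Irgm1, whose change was 0.94 once the 0 h library of serum/LIF+2i replicate 1 was left out (adjusted p 0.179, edgeR). The change of Gm21283 was not called under DESeq2, limma-voom or 3 of the 4 omissions of a 0 h library. Dnmt3l and Aire overlap, as do Gm21283 and Hydin, so each pair may share reads. The 24 genes were chosen by their difference at 0 h, and that difference enters the change.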

How the results depend on the processing

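Genes called both at 0 h and under an alternative had the same direction in each. With upper quartile scaling 58.1% of calls were higher instead of 44.3%, and medians close to 0 changed sign, from -0.03 to 0.03 for the serine and one-carbon list, from -0.05 to 0.01 for BMP and from -0.03 to 0.03 for iron. The iron median was 0.01 to 0.05 when each library was left out. DESeq2 called fewer genes, 3115 at 0 h (1326 higher), 2668 at 12 h, 2729 at 24 h, 2010 at 40 h and 574 for the change from 0 to 12 h. A minimum log2 fold change of 1 left 813 at 0 h (325 higher, 488 lower), 666 at 12 h, 620 at 24 h, 482 at 40 h and 232 for the change. Leaving out each 0 h library in turn gave 3540 to 3940 calls at 0 h (1541 to 1770 higher, 1886 to 2170 lower), 4297 to 4469 at 12 h, 4380 to 4573 at 24 h, 3857 to 4086 at 40 h and 973 to 1119 changes, with the lone library assumed to vary like the other groups. With a replicate block 4745 genes were called (2103 higher, 2642 lower). Across genes, the deviations of same-numbered samples from their group means had a correlation of -0.00249 between the 2 media at 0 h. Over all pairs of groups it ran from -0.02303 to 0.03308. No pairing by number was seen, but with 2 samples per group these values cannot exclude it. The 4 libraries at 0 h alone gave 4377 calls, 4320 of them shared, and limma-voom 4597. With 2 libraries per medium and 5931381 to 6946416 counts each, fold changes of genes near the floor of 3 counts had wide errors, as for Sox1 (2.72 ± 0.45).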

Other observations

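Interferon-inducible genes were examined after the falls of Irgm1 and Zbp1 had been seen, so the list was chosen after values were known and its count is a description. Of 49 listed genes 33 passed the filter, and 20 were called lower and 5 higher (75.8% called, against 33.0% of all genes), with a median log2 fold change of -0.60. Irgm1 and Zbp1 are themselves counted among the 20 and enter the share and the median, and their calls were fixed by the choice. Irf1 (16362), a transcription factor of the interferon response, went from 94.1 and 86.7 CPM in 2i/LIF to 50.2 and 49.9 CPM in serum/LIF+2i (-0.85 ± 0.08). Parp12 (243771), an antiviral ADP-ribosyltransferase, went from 14.3 and 16.4 to 4.85 and 3.52 CPM (-1.88 ± 0.21), and Dtx3l (209200), a ubiquitin ligase, from 39.5 and 36.3 to 17.3 and 16.9 CPM (-1.14 ± 0.12). Ifi35 (70110) went from 26.9 and 22.9 to 10.7 and 8.52 CPM (-1.37 ± 0.16), and Oas1a fell (-0.74 ± 0.10). The members called higher were the class I histocompatibility gene H2-D1 (1.31 ± 0.20), Bst2 (0.36 ± 0.11), the RNA sensor gene Ddx58 (0.34 ± 0.09), Ifitm2 (0.27 ± 0.04) and Ifitm3 (0.16 ± 0.05). H2 genes and the Ifitm and Oas families have close relatives that could share reads.

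The X chromosome had the lowest median log2 fold change among chromosomes at 0 h, -0.11 over 342 genes at 5 CPM or more. Of these, 37 were called higher (10.8%) and 114 lower (33.3%), where 17.5% and 22.0% of the 10429 genes at that level with a chromosome were. The share called in either direction was 44.2% on X and 43.3% on chromosome 11. The highest median was 0.05, on chromosome 8.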
